A study of Mus musculus with 9 samples.

Results

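Axon guidance genes encode the secreted or membrane-bound cues that steer growing axons and migrating cells, and the receptors that read them. The genes described here were every gene of the deposited table whose symbol begins with Sema, Plxn, Robo, Unc5, Slit plus a digit, Ntn or Ntng plus a digit, or Nrp plus a digit, together with Dcc and Neo1; Eph and ephrin genes were left out. The rule found 37 of the 14771 named genes: 22 ligands, 14 receptors and Unc50, which shares the first letters of the Unc5 receptors without being a guidance receptor. No measured value entered the rule. Semaphorins made up 15 of the genes and plexins, their receptors, 9. Nrp1, Nrp2, Robo2, Robo4, Unc5a, Unc5c, Unc5d, Ntng1, Ntn5, Sema3b, Sema4a, Sema4f, Sema6b, Sema6c and Unc5cl were not analysed here.

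RNA was sequenced from 9 mouse libraries, 3 in each of 3 groups. OB libraries were made from tumour cells of the olfactory bulb and BS libraries from tumour cells of the brainstem; both carry the strain label 129;C57BL/6 mix and the genotype Foxr2 overexpression with p53 cko. Foxr2 is a forkhead transcription factor, and a cko is a conditional knockout allele. AG libraries were made from astroglia of strain C57BL/6 with the genotype p53 DN, Nf1 shRNA, so that p53 was targeted in all 3 groups by different means and Nf1 in AG. Age, the promoter or Cre driver, and whether replicate libraries stem from different mice or cultures are not stated in the labels, so p-values describe the spread among these libraries, which may be technical. Strain, genotype and cell type differ together between the tumour groups and AG and cannot be told apart in any comparison with AG.

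Netrins attract axons through Dcc and repel them through Unc5 receptors. Slits repel through Robo receptors, which keeps commissural axons from recrossing the midline. Semaphorins signal mostly through plexins, with class 3 members usually needing a neuropilin as co-receptor. Slits also repel the neuroblasts that migrate to the olfactory bulb, and several semaphorins steer oligodendrocyte precursors during development.

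Library totals ran from 11300273 to 13927771 reads in OB, 12680832 to 15282668 in BS and 14987773 to 19868282 in AG. Values are normalized reads, that is reads divided by 1 size factor per library. Foxr2 ranged from 4505 to 6814 in OB and 7377 to 12567 in BS, against 0 to 0.986 in AG. Nf1 ranged from 4184 to 8620 in OB and 4642 to 6239 in BS, against 1334 to 1588 in AG. Trp53, which encodes p53, overlapped in all groups. In a principal component analysis of the 10576 genes tested, the first component (65.2% of the variance) separated AG from the tumour libraries, the second (14.6%) had OB_257 farthest from the rest and the third (9.97%) BS_287. The summed level of 6 oligodendrocyte precursor markers was 40344 to 72013 in OB and 33881 to 80010 in BS, against 17.4 to 20.0 in AG, where Olig2 was at 0. The markers did not move together. In OB_257 the sum was mostly Sox10 (30528). In BS_287 it was mostly Olig1 (18919) and Olig2 (13400), with Sox10 at 3.35 and Gpr17 at 0. Pdgfra overlapped AG, with 1.11 to 97.8 in OB and 2.52 to 41.6 in BS against 3.94 to 8.71 in AG. The summed level of 6 astrocyte markers was 6705 to 29653 in OB, 14425 to 27585 in BS and 5746 to 6287 in AG. Most of the tumour sum was Slc1a3, with means of 13121 in OB and 19935.5 in BS against 821 in AG. In OB_257 it was mostly S100b (6616). Gja1 went the other way, with means of 353 in OB and 1493 in BS against 5154 in AG. In AG the astrocyte sum was mostly Gja1, and Gfap and Aqp4, which have several RefSeq transcripts each, stayed at or under 3.27, so that they give no firm check of the astroglia label. The sum of 5 fibroblast markers was 9.95 to 121 in OB and 12.6 to 14.9 in BS, against 35642 to 46411 in AG, mostly Col1a1. Of 5 pericyte and smooth muscle markers 3 were in the table, and their sum was 18.8 to 73.9 in OB and 8.39 to 40.4 in BS, against 52560 to 56003 in AG, mostly Acta2. The sum of the 4 endothelial markers in the table was 11.1 to 212 in OB and 28.6 to 242 in BS, against 921 to 1035 in AG, where Flt1 made up most of it and Cdh5 and Cldn5 were at 0. Kdr went the other way, with means of 99.3 in OB and 113 in BS against 9.51 in AG. The sum of the 5 neuronal markers in the table was 2222 to 4566 in OB and 1076 to 5208 in BS, against 695 to 796 in AG, and that of 3 microglial markers was 68.5 to 81.8 in OB, 32.0 to 103 in BS and 59.2 to 71.0 in AG. In AG the neuronal sum was mostly Tubb3, which overlapped between BS (416 to 2148) and AG (648 to 765). The part of these marker differences in the results that follow was not tested.

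A gene was tested when it reached 10 normalized reads in at least 3 libraries, and was called at a limma adjusted p under 0.05 over all genes tested. This left 29 guidance genes. Of the 23 with 1 curated RefSeq transcript 22 were tested, and of the 14 with several 7 were (Neo1, Plxna3, Sema3a, Sema4c, Sema6a, Sema6d and Unc50). Over the whole table, the median row mean was 258.6 normalized reads for genes with 1 curated transcript, 12.57 for those with 2 and 6.81 for those with 3 or more, and the cause of this was not tested. The 8 genes under the filter were Ntng2 (1.97 to 9.95 normalized reads over the 9 libraries), Unc5b (0 to 4.36), Slit2 (0 in all tumour libraries and 0.986 to 4.36 in AG), Robo3 (30.5 in OB_287 and at most 3.94 elsewhere), Sema3f (0 to 7.50), Sema4b (0 to 3.20), Sema4d (0 to 2.21) and Plxnb2 (0 to 4.93). Low values of genes with several transcripts are not read as low expression.

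In OB against AG, 10 of the 29 tested guidance genes were higher, 5 lower and 14 not called, where 34.9% of all genes tested were called, 16.0% higher and 19.0% lower. In BS against AG, 8 were higher, 5 lower and 16 not called, where 35.1% of all genes tested were called, 15.6% higher and 19.5% lower. The median log2 difference of the guidance genes was 0.34 in OB and 0.12 in BS, against -0.01 and -0.03 over all genes tested. Without Unc50 it was 0.39 in OB and 0.41 in BS. Among the tested genes, 5 (Dcc, Neo1, Sema3g, Sema6a and Sema6d) stayed under the filter value in every AG library, so they entered through tumour libraries, and the counts are a description. Rescaling by the upper quartile, which moved the median of all genes to 0.18 in both comparisons, gave 10 higher and 3 lower guidance genes in OB. The libraries of the groups did not overlap for 12 higher and 8 lower genes in OB against AG, where 58.3% of all genes did not overlap, and for 11 higher and 6 lower genes in BS against AG, where 58.4% did not. edgeR called 15 guidance genes in OB (35.2% of all genes) and 13 in BS (34.8%), and DESeq2 17 in OB (40.5%) and 13 in BS (40.4%). Both comparisons use the same AG libraries.

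**Figure D1:**
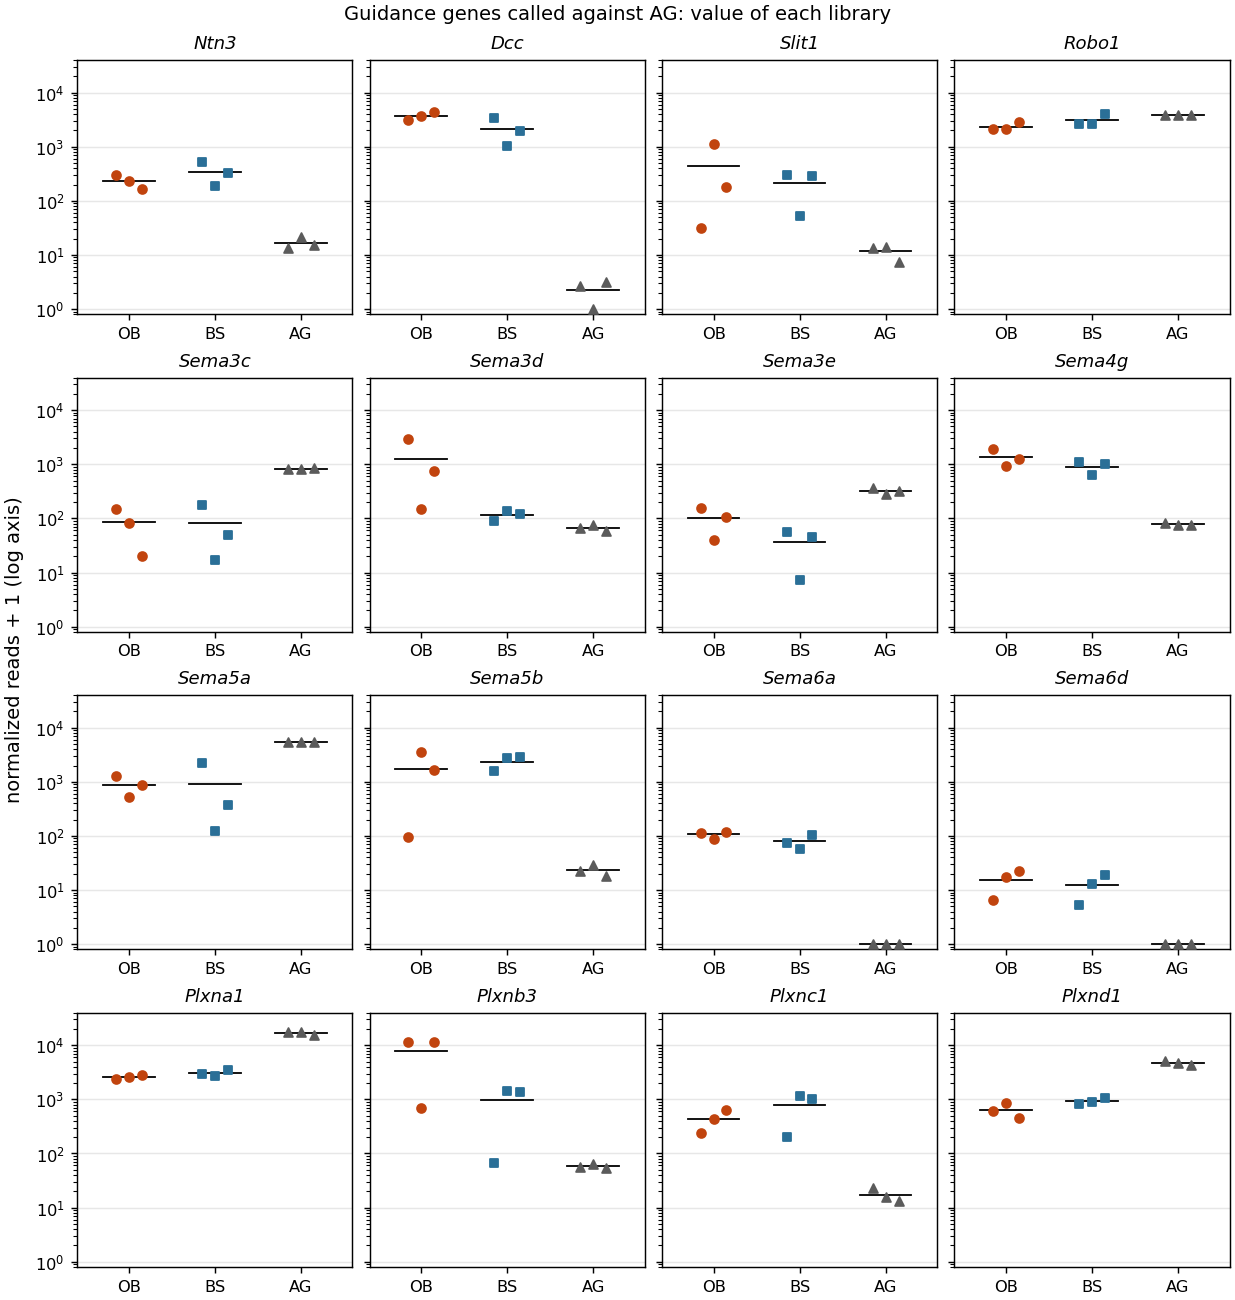
Normalized reads plus 1 (log axis) of the 16 guidance genes called in at least 1 comparison, in OB, BS and AG. Points are libraries and black lines the group means of 3 libraries. The AG points lie close together in most panels, and the tumour points of Slit1, Sema3c, Sema3d, Sema5a, Sema5b and Plxnb3 are spread over more than 10-fold in at least 1 tumour group.

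Dcc, the receptor through which netrins attract axons, had the largest difference of the guidance genes in both comparisons with AG. It had 3079, 3665 and 4308 normalized reads in OB and 3378, 1032 and 1944 in BS, against 1.67, 0 and 2.18 in AG. Every tumour library was above every AG library, where Dcc rested on 4 reads in all. The mean was 3684 ± 615 in OB, against 1.28 ± 1.14 in AG (SD, n = 3 each), a log2 difference of 10.81 ± 0.53 (SE, limma adjusted p = 4.03e-06). In BS the mean was 2118 ± 1183 (SD, n = 3), a log2 difference of 9.86 ± 0.53 over AG (SE, limma adjusted p = 5.89e-06). Differences are on the log2(value + 1) scale, which understates changes of low genes. In bulk RNA, fewer cells of a type and less RNA per cell cannot be told apart.

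Ntn1, the netrin secreted by the floor plate, was not called in either comparison. It had 265, 1975 and 1674 normalized reads in OB and 456, 4617 and 8694 in BS, against 6655, 6338 and 5918 in AG. All OB libraries lay below AG, while BS reached from below to above it. The log2 difference was -2.72 ± 1.10 in OB (SE, limma adjusted p = 0.0869) and -1.26 ± 1.10 in BS (0.409). In a fit of OB and AG alone Ntn1 was called lower (limma adjusted p = 0.0322), as it was without BS_287 (0.0199). DESeq2 with all libraries also called it lower in OB (adjusted p = 0.0322), while edgeR did not (0.104). Without OB_257 the OB difference was -1.79 and was not called (limma adjusted p = 0.227).

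Ntn3, a netrin known from neurons of the peripheral nervous system, was higher in both tumour groups. It had 295.1, 236 and 164 normalized reads in OB and 512, 186 and 324 in BS, against 12.5, 20.7 and 14.2 in AG. Neither tumour group overlapped with AG. On the log2 scale the difference was 3.78 ± 0.43 in OB (SE, limma adjusted p = 0.000283) and 4.26 ± 0.43 in BS (0.000153). Ntn4, a laminin-like netrin of basement membranes, was not called. It ranged from 5.53 in OB_257 to 1213 in OB_287 and from 157 to 640.4 in BS, against 477 to 539 in AG. Neo1, the Dcc relative that binds netrins and repulsive guidance molecules, was not called and had 3.81 to 11.95 normalized reads in OB, 11.7 to 17.7 in BS and 6.90 to 8.34 in AG. Unc50, taken by its first letters only, had 2.21 to 8.69 in OB, 11.8 to 15.1 in BS and 6.53 to 18.3 in AG and was not called.

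Among the slits, Slit1, which is known from the nervous system, was higher in both tumour groups. It had 30.9, 1109 and 176 normalized reads in OB and 298, 52.3 and 289.7 in BS, against 12.5, 12.8 and 6.53 in AG. Neither tumour group overlapped with AG, but the tumour libraries spread over more than 10-fold in OB. This gave a log2 difference of 4.04 ± 1.20 in OB (SE, limma adjusted p = 0.0308) and 3.89 ± 1.20 in BS (0.0357). Leaving out OB_257 or OB_287 gave 5.31 or 2.75 in OB, and leaving out BS_295 gave 4.72 in BS. Neither call is firm: without any 1 AG library the adjusted p ran from 0.0740 to 0.0998 in OB and 0.0825 to 0.111 in BS, without OB_287 or OB_295 it was 0.0647 and 0.0697 in OB, and without BS_287, BS_296 or OB_295 it was 0.0925, 0.105 and 0.0523 in BS.

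Slit3 was not called. It had 112, 146 and 3.26 normalized reads in OB and 10.9, 1.07 and 1.97 in BS, against 20.0, 38.4 and 29.4 in AG. All BS libraries were below AG, while OB had libraries on both sides. The log2 difference in BS was -2.81 ± 1.29 (SE, limma adjusted p = 0.125), and a fit of BS and AG alone (0.0209) or without OB_295 (0.0166) called it lower.

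Robo1, the slit receptor of commissural axons, was lower in OB by a small step. It had 2156, 2093 and 2847 normalized reads in OB and 2659, 2594 and 3969.5 in BS, against 3810.4, 3848 and 3852 in AG. The log2 difference was -0.71 ± 0.20 in OB (SE, limma adjusted p = 0.0259) and -0.35 ± 0.20 in BS (0.218). The OB call ended under upper quartile rescaling (0.0738), quantile normalization (0.114), without any 1 AG library (0.0773 to 0.0806) and without OB_257 (0.0581) or OB_287 (0.0675). Without BS_296 Robo1 was called lower in BS, by a log2 difference of -0.55 (limma adjusted p = 0.0490).

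Of the 12 tested semaphorins, 5 were higher, 2 lower and 5 not called in OB, and 4 were higher, 3 lower and 5 not called in BS, beside 34.9% and 35.1% of all genes called in OB and BS. The class 3 genes, which encode secreted proteins, moved in both directions. Sema3c, a class 3 semaphorin that acts in heart outflow tract development through Plxnd1, was lower in both tumour groups. It had 150.3, 80.9 and 19.6 normalized reads in OB and 174, 16.0 and 48.3 in BS, against 809.6, 811 and 855 in AG. No tumour library came near AG. On the log2 scale the difference was -3.70 ± 0.91 in OB (SE, limma adjusted p = 0.0140) and -3.97 ± 0.91 in BS (0.0105). Single libraries moved these values without ending the calls: to -4.33 without OB_257 and -2.89 without OB_295 in OB, and to -4.83 without BS_287 and -3.15 without BS_295 in BS.

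Sema3e, which signals through Plxnd1 without needing a neuropilin, was called lower in BS. It had 155, 38.1 and 104 normalized reads in OB and 56.2, 6.40 and 44.3 in BS, against 361, 281 and 327 in AG, with no overlap in either comparison. This gave a log2 difference of -1.90 ± 0.80 in OB (SE, limma adjusted p = 0.0970) and -3.59 ± 0.80 in BS (0.00899). In OB it was called in a fit of OB and AG alone (limma adjusted p = 0.0298) and without BS_295 (0.0228). With all libraries it was called in OB by DESeq2 (adjusted p = 0.0464) and not by edgeR (0.111). Without BS_295 the BS difference was -2.66.

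Sema3d, a secreted semaphorin that lies next to Sema3a on chromosome 5, was called higher in OB. It had 2880.2, 148 and 754 normalized reads in OB and 87.2, 139 and 117 in BS, against 64.2, 73.9 and 56.6 in AG. Every tumour library was above AG, and every OB library above every BS library. The log2 difference was 3.39 ± 0.89 in OB (SE, limma adjusted p = 0.0181) and 0.79 ± 0.89 in BS (0.523). The OB call ended without AG_1 (0.0573), AG_2 (0.0508), AG_3 (0.0613) or OB_295 (0.0510), and the difference was 2.35 without OB_257 and 4.49 without OB_287.

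Sema3a, the collapsin that repels sensory axons, had 0, 48.5 and 55.4 normalized reads in OB and 5.03, 52.3 and 30.5 in BS, against 20.0, 27.6 and 22.9 in AG, and was not called. Its log2 difference in OB was -0.79 ± 1.50 (SE, limma adjusted p = 0.719), and without OB_257, which had 0 reads, it was 1.12. Sema3g, a semaphorin known from endothelium, had 1541, 8.56 and 61.9 normalized reads in OB and 148, 1.07 and 7.88 in BS, against 0, 4.93 and 1.09 in AG. All OB libraries were above AG, but the log2 difference of 5.40 ± 2.01 was not called (SE, limma adjusted p = 0.0677). It was called without BS_287 (0.0422) or without OB_287 (0.0295), and by edgeR on recovered reads, where its log2 difference was 8.08 (adjusted p = 0.0414). DESeq2 called it as well (adjusted p = 0.000804). Without OB_257 the limma difference was 3.41 and was not called (adjusted p = 0.168). Nor was Sema3g called by limma without AG_1 (0.184) or AG_2 (0.104).

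In class 4, Sema4g, a transmembrane semaphorin, was higher in both tumour groups. It had 1890.0, 927 and 1257 normalized reads in OB and 1091, 627 and 992 in BS, against 81.7, 75.9 and 74.0 in AG. The lowest tumour library was well above the highest AG library. On the log2 scale the difference was 4.06 ± 0.31 in OB (SE, limma adjusted p = 3.56e-05) and 3.49 ± 0.31 in BS (7.31e-05). Sema4c, its class 4 relative, had 16.2 to 16.6 normalized reads in OB, 9.60 to 19.7 in BS and 11.98 to 13.8 in AG and was not called.

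The class 5 semaphorins, transmembrane proteins with thrombospondin repeats, moved in opposite directions. Sema5b had 96.2, 3489.7 and 1674 normalized reads in OB and 1573, 2714 and 2822 in BS, against 21.7, 28.6 and 17.4 in AG. All tumour libraries were above AG, with OB_257 the lowest of them. This gave a log2 difference of 5.16 ± 1.12 in OB (SE, limma adjusted p = 0.00788) and 6.63 ± 1.12 in BS (0.00235), and in OB it was 6.71 without OB_257 and 4.12 without OB_287. Sema5a had 1282, 517 and 869 normalized reads in OB and 2192, 121 and 379 in BS, against 5341, 5449 and 5408 in AG. All tumour libraries were below AG, and BS libraries differed by more than 10-fold among themselves. The log2 difference was -2.70 ± 0.88 in OB (SE, limma adjusted p = 0.0439) and -3.53 ± 0.88 in BS (0.0151). The call of Sema5a in OB ended in 11 of 22 alternatives, among them upper quartile rescaling (0.0584), edgeR (0.0572) and each fit without an AG or OB library or without BS_296 (0.0512 to 0.115), and its call in BS ended with edgeR (0.0594). The BS difference of Sema5a was -4.65 without BS_287 and -2.56 without BS_295. DESeq2 gave no adjusted p for Sema5a.

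In class 6, both tested genes were at 0 in every AG library. Sema6a has 2 and Sema6d 7 curated RefSeq transcripts, so their zeros in AG are not read as a lack of expression. Sema6a, a transmembrane semaphorin of oligodendrocytes and cerebellar granule cells, had 111, 87.6 and 118 normalized reads in OB and 73.0, 56.5 and 104 in BS. Against a floor of 3 reads per AG library it was at least 36.3-fold higher in OB (limma adjusted p = 5.29e-06) and at least 26.8-fold higher in BS (7.15e-06). Sema6d, which binds Plxna1, had 5.53, 16.2 and 21.7 normalized reads in OB and 4.19, 11.7 and 17.7 in BS. It was at least 4.98-fold higher in OB (limma adjusted p = 0.00183) and at least 3.86-fold higher in BS (0.00314). Both genes were above AG in 6 of 6 tumour libraries. Sema7a, a membrane-anchored semaphorin that promotes axon growth, was not called and had 318 to 907 normalized reads in OB, 137 to 883 in BS and 285 to 323 in AG.

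**Figure D2:**
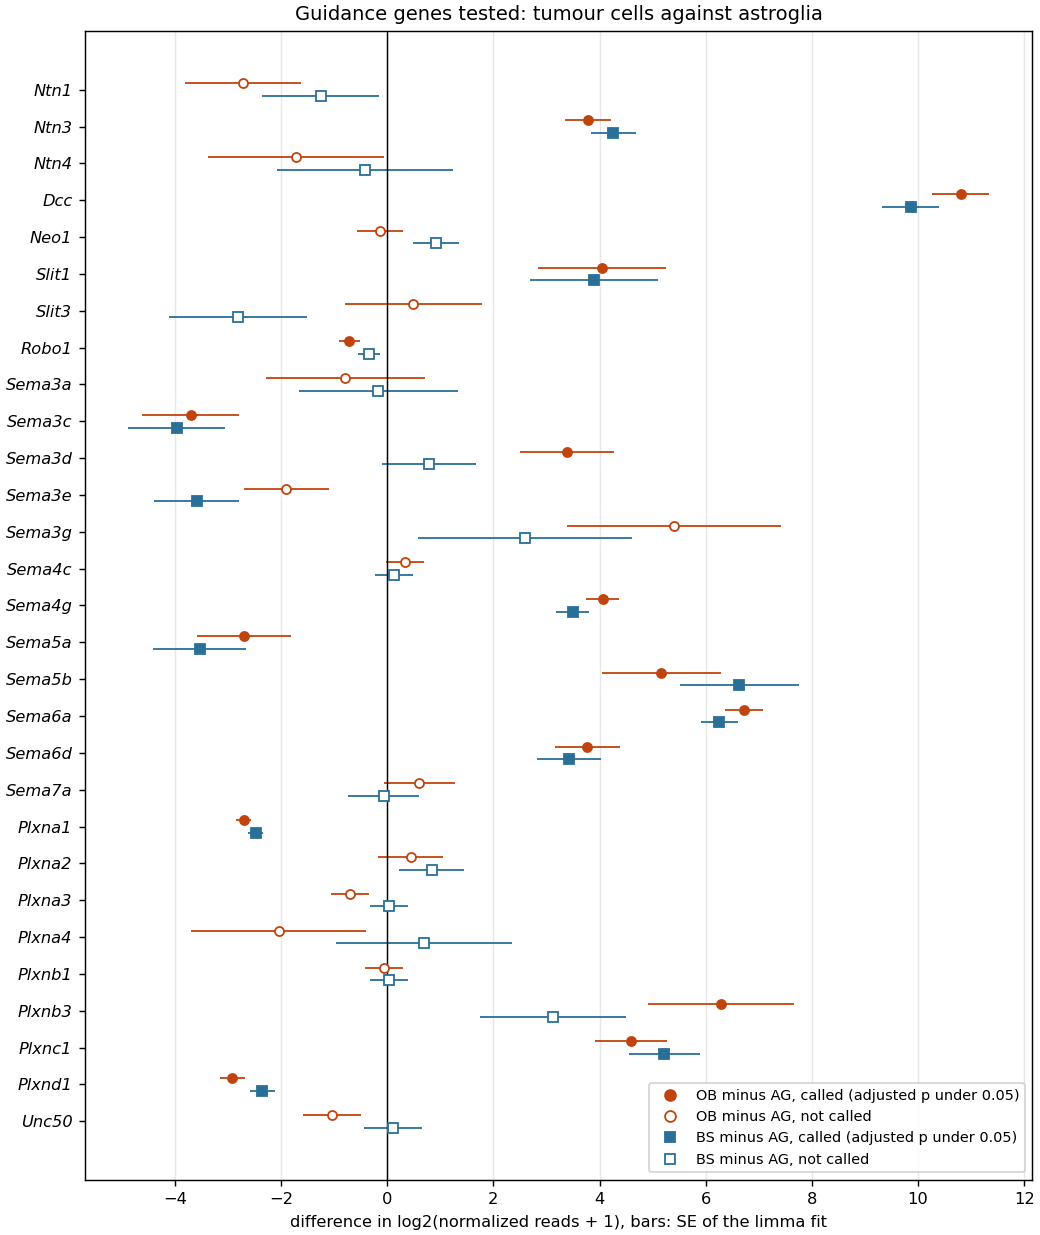
Log2 differences from AG of the 29 tested guidance genes, on the log2(normalized reads + 1) scale, for OB (circles) and BS (squares). Bars are standard errors of the limma fit and filled symbols are calls at an adjusted p under 0.05. Dcc lies farthest to the right, at 10.81 in OB and 9.86 in BS, and Sema3c farthest to the left, at -3.70 in OB and -3.97 in BS.

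Of the 8 tested plexins, 2 were higher, 2 lower and 4 not called in OB, and 1 was higher, 2 lower and 5 not called in BS, beside 34.9% and 35.1% of all genes called in OB and BS. Plxna1, a receptor of class 3 complexes and class 6 semaphorins, was lower in both. It had 2332, 2579.9 and 2849.6 normalized reads in OB and 2949, 2709.7 and 3428 in BS, against 17485, 17382 and 15606 in AG. The tumour libraries lay close together and far below AG. On the log2 scale the difference was -2.70 ± 0.15 in OB (SE, limma adjusted p = 6.08e-06) and -2.48 ± 0.15 in BS (8.81e-06).

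Plxnd1, the receptor of Sema3e known for vessel patterning, was lower in both as well. It had 609, 848 and 454 normalized reads in OB and 811, 892 and 1056 in BS, against 5070.3, 4723 and 4290.5 in AG. No libraries overlapped. This gave a log2 difference of -2.92 ± 0.24 in OB (SE, limma adjusted p = 4.69e-05) and -2.36 ± 0.24 in BS (0.000146).

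Plxnc1, the receptor of Sema7a, was higher in both tumour groups. It had 234, 435 and 630.3 normalized reads in OB and 204, 1171 and 1006 in BS, against 21.7, 14.8 and 11.98 in AG. The lowest tumour library was above the highest AG library in both comparisons. The log2 difference was 4.59 ± 0.67 in OB (SE, limma adjusted p = 0.00113) and 5.22 ± 0.67 in BS (0.000574), where it was 6.02 without BS_287.

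Plxnb3, a Sema5a receptor known from the oligodendrocyte lineage, was called higher in OB. It had 11376, 701 and 11310.3 normalized reads in OB and 64.6, 1406 and 1390.2 in BS, against 55.9, 62.1 and 52.3 in AG. OB_287 was the low OB library, and BS_287 was close to AG. On the log2 scale the difference was 6.28 ± 1.38 in OB (SE, limma adjusted p = 0.00822) and 3.13 ± 1.38 in BS (0.111). The OB difference was 5.61 without OB_257, 7.62 without OB_287 and 5.62 without OB_295. Without BS_287 the BS difference was 4.60 and was called (limma adjusted p = 0.0160). With all libraries it was called by edgeR (adjusted p = 0.0336) and by DESeq2 (0.000387). Without BS_295 or BS_296 the BS difference was 2.39 or 2.40 and was not called (limma adjusted p = 0.269 and 0.282). The oligodendrocyte lineage gene Sox10 had 30528, 1808 and 13223 normalized reads in OB and 3.35, 29.9 and 1511 in BS, against 0.834, 0.986 and 2.18 in AG. OB_287 was also the low OB library for Sox10 and BS_287 the low BS library. The other oligodendrocyte precursor markers were lowest in BS_287 among BS libraries as well. In OB, Gpr17 was lowest in OB_287, but Olig1, Olig2, Cspg4 and Pdgfra were lowest in OB_257, where Plxnb3 was highest. The part of Sox10 or of the other markers in the Plxnb3 values was not tested.

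The other plexins were not called. Plxna2, a receptor of Sema6a, had 1408 to 7344 normalized reads in OB, 2270.0 to 8399 in BS and 2316 to 2473 in AG. Plxna3 had 55.3 to 86.6 in OB, 92.8 to 184 in BS and 98.0 to 138 in AG, so that all OB libraries were below both other groups. Plxna4 had 0 to 76.1 in OB, 10.8 to 425 in BS and 25.8 to 50.3 in AG. Plxnb1, the receptor of Sema4d, had 3150.0 to 7869 in OB, 3553 to 7037 in BS and 4974 to 5602 in AG.

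Promoter windows from RefSeq (build GRCm38.p6, 250 bases before to 50 after the gene start) were at hand for 12 of the 16 genes called in at least 1 comparison. The genes that were called higher had 8 windows and those called lower 5. Each was searched on both strands for a forkhead motif (GTAAACA), an ETS motif (CCGGAAG), an E-box (CAGCTG) and a SOX motif (AACAAAG), of which the forkhead and SOX motifs can share letters with each other. The E-box was found in 2 of the 8 windows of higher genes (25%), against 16.3% of 32851 windows of all genes, and the SOX motif in 1 of 8 (12.5%), against 5.85% of all windows. The forkhead and ETS motifs were in none of the 13 windows, against 3.65% and 8.86% of all windows, and the windows of lower genes held none of the 4 motifs. The 3 windows with a match are shown, chosen after the matches were known, with that of Plxnd1 as a gene that was lower in both tumour groups. Capitals mark the motif, and the sequences run 5′ to 3′ on the strand of the gene: Plxnb3 at chrX:73756853-73757152 (plus strand) with 2 E-boxes, Sema4g at chr19:44989094-44989393 (plus) with 1, Sema6d at chr2:124653331-124653630 (plus) with a SOX motif, and Plxnd1 at chr6:115994956-115995255 (minus) with none.
Plxnb3: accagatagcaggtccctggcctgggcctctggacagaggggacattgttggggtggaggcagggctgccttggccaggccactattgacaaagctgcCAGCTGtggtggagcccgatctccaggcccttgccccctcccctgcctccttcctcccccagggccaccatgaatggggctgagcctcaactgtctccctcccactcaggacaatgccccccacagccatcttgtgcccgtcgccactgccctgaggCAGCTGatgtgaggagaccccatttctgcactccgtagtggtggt
Sema4g: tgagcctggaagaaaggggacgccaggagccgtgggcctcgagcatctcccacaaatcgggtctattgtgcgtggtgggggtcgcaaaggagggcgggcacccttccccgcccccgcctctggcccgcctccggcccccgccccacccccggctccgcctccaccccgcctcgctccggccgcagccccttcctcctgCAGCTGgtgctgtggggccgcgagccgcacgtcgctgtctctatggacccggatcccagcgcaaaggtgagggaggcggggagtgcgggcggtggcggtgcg
Sema6d: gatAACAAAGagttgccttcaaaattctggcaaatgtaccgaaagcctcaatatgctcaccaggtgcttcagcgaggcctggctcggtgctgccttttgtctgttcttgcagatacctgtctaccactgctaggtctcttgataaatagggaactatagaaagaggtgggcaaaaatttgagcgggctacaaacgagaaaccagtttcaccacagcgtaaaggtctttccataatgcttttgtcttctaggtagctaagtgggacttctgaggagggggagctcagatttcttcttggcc
Plxnd1: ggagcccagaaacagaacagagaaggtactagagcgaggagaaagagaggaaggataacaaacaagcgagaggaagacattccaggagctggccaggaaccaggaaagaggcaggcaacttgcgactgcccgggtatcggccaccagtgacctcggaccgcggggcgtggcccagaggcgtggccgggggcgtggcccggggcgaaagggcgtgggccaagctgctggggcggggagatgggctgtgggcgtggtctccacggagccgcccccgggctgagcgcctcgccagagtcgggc
The Plxnb3 and Sema6d windows hold 4 and 6 CpG dinucleotides, against 30 in Sema4g and 23 in Plxnd1. A match is a run of letters and not a measured binding site.

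Ligands were set beside their known receptors in 46 listed pairs, of which 19 had both genes tested. In none of these 19 pairs were both genes called higher in a tumour group. This depends on which pairs were listed. Neither Draxin nor Ntn3 was listed with Dcc, and Draxin, Ntn3 and Dcc were each called higher in OB and in BS. In OB, 3 pairs had a higher ligand and a lower receptor (Slit1 with Robo1, Sema5b with Plxna1 and Sema6d with Plxna1), and 1 pair the opposite (Sema5a lower and Plxnb3 higher). Both partners were lower in OB for Sema3c with Plxnd1 and for Sema5a with Plxna1, and in BS for these and for Sema3e with Plxnd1. In BS, Sema5b with Plxna1 and Sema6d with Plxna1 again had a higher ligand and a lower receptor. The receptor was higher while the ligand was not called for Ntn1 with Dcc and for Sema7a with Plxnc1, in both tumour groups. Over all genes tested, 16.0% were called higher and 19.0% lower in OB, and 15.6% higher and 19.5% lower in BS. Pairs share genes, such as Plxna1, and are not independent of each other. The calls of Slit1, Robo1 and Sema5a ended in some alternatives.

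**Figure D3:**
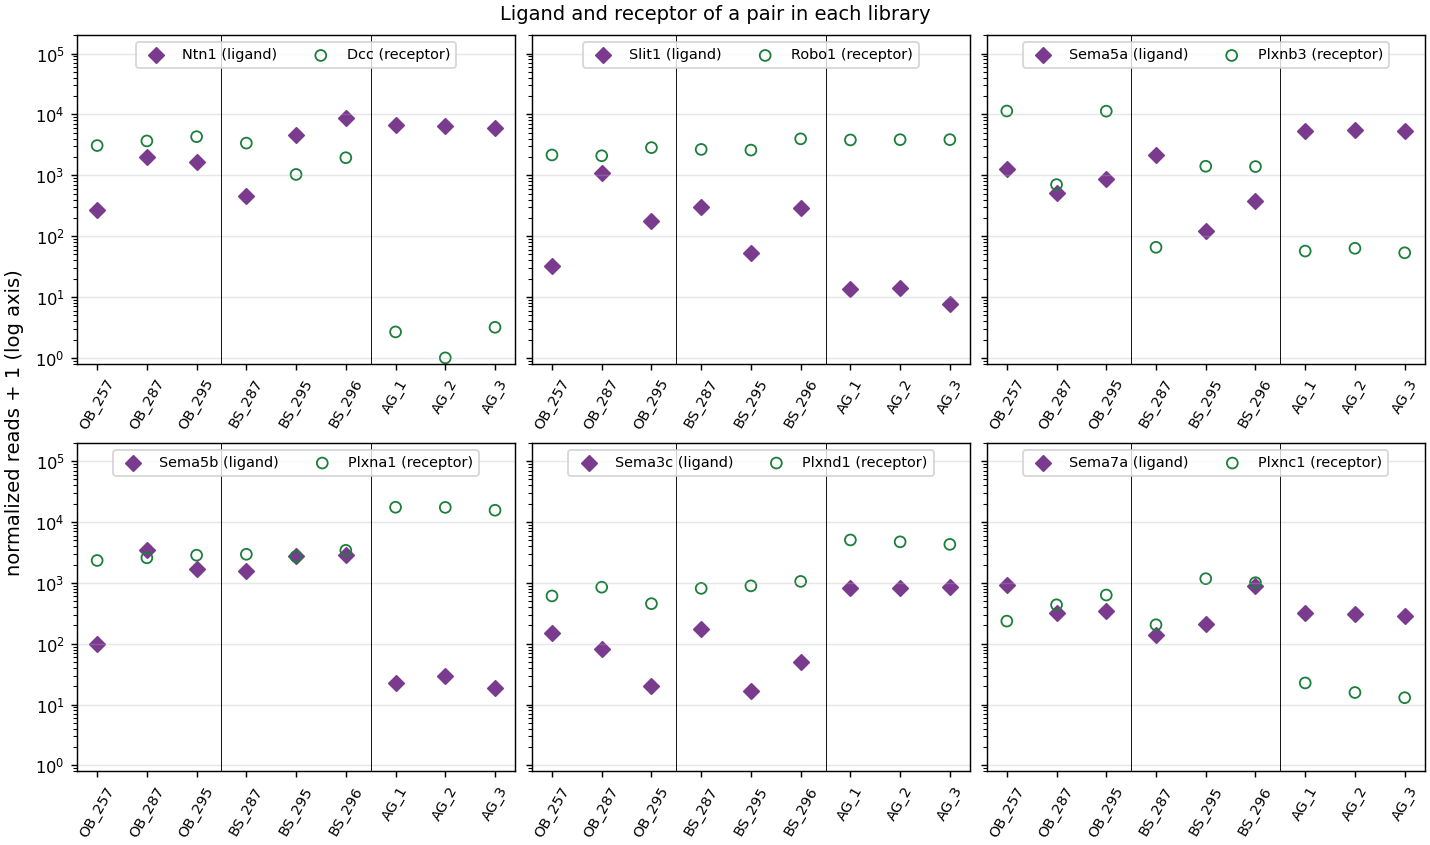
Normalized reads plus 1 (log axis) of both partners of 6 ligand and receptor pairs in each library of OB, BS and AG. In the pair of Ntn1 and Dcc the ligand reached 5918 to 6655 in AG, where the receptor was at most 2.18, while in OB the receptor was at 3079 to 4308.

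Of 21 further guidance genes that the rule did not take (co-receptors, other netrin and slit ligands, adhesion partners), 17 were tested. In OB 4 were higher and 3 lower, with a median log2 difference of 1.20, and in BS 4 were higher and 1 lower, with a median of 0.22. Over all genes tested 34.9% were called in OB and 35.1% in BS, with medians of -0.01 and -0.03, so that the called shares of this list lay near those of the table. Dscam, Lrrc4 and Lrrc4b, among others, stayed under the filter value in every AG library. They entered through tumour libraries, so the counts and medians are a description. Draxin, a secreted repellent that binds Dcc, had a mean of 1008 ± 270.4 normalized reads in OB and 4376 ± 3535 in BS, against 22.9 ± 1.25 in AG (SD, n = 3 each). Its log2 difference was 5.36 ± 0.50 in OB (SE, limma adjusted p = 9.86e-05) and 7.22 ± 0.50 in BS (1.88e-05). Dscam, which acts as a netrin receptor beside Dcc, averaged 1187 ± 1150 in OB and 1136 ± 1499 in BS (SD, n = 3 each) and was called higher in both, with 2 reads in all AG libraries. Its ratio of reads over AG was 1837 in OB (95% exact counting interval 508 to 15175) and 1616 in BS (447 to 13350). Lrrc4, the partner of netrin-G2, averaged 997.9 ± 265 in OB and 858 ± 707 in BS, against 1.85 ± 0.713 in AG. Lrrc4b, its relative, averaged 2692 ± 826 in OB and 3376 ± 1664 in BS, with 1 read in all AG libraries, a ratio of reads of 8445 in OB (1515 to 333594) and 10187 in BS (1828 to 402389). Both Lrrc4 and Lrrc4b were called higher in both tumour groups. Met, the hepatocyte growth factor receptor that pairs with B plexins, averaged 30.0 ± 20.4 in OB and 175 ± 300 in BS, against 5776 ± 266 in AG, and was called lower in both; in BS the call ended with edgeR (adjusted p = 0.0544). Erbb2, which pairs with the same plexins, and Flrt2, an Unc5 ligand, were lower in OB, with log2 differences of -2.06 ± 0.45 (SE, limma adjusted p = 0.00826) and -1.85 ± 0.35 (0.00415). Leaving out 1 library moved the fold change of several of these called genes by more than 1.5 times on the linear scale. The values that follow are log2 differences. In OB, Dscam was 9.76 without OB_257 and 8.23 without OB_295 (9.02 with all libraries), and Erbb2 -1.47 without OB_257 (-2.06). In BS, Draxin was 6.59 without BS_296, Dscam 9.56 without BS_287 and 6.58 without BS_295 (7.98 with all libraries), and Lrrc4 8.76 without BS_287 and 6.79 without BS_295 (7.55). The BS difference of Met was -10.97 without BS_287, -7.49 without BS_295 and -6.94 without BS_296 (-8.47 with all libraries). DESeq2 gave no adjusted p for Met.

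Of 44 cytoplasmic effectors listed, 29 were tested: 10 were higher and 7 lower in OB, and 9 higher and 6 lower in BS, with a median log2 difference of 0.35 in each. Over all genes tested 34.9% were called in OB and 35.1% in BS, with medians of -0.01 and -0.03. Dpysl4, a collapsin response mediator, averaged 1879 ± 1542 in OB and 706 ± 238 in BS, against 17.4 ± 6.07 in AG (SD, n = 3 each), and was called higher in both. Its relative Crmp1 averaged 28.7 ± 9.86 in OB and 47.4 ± 19.9 in BS, against 3.19 ± 0.202 in AG, and was also higher in both. The family did not move as a whole. Dpysl2 was higher in both (limma adjusted p = 0.0295 in OB and 0.00318 in BS). Dpysl3 was lower in both, with means of 44.6 in OB and 54.7 in BS against 226 in AG (limma adjusted p = 0.0273 and 0.0464). Its BS call ended with edgeR (adjusted p = 0.0629). Cdk5r1, the activator of Cdk5 that primes collapsin response mediators, was 7.98-fold higher in OB and 8.96-fold higher in BS. Rnd2 was 19.0-fold higher in OB and 4.36-fold higher in BS, while its relative Rnd1, which binds A and B plexins, was 9.90-fold lower in OB and 17.8-fold lower in BS. Dapk1, a kinase that acts below Unc5 receptors, averaged 67.6 ± 11.97 in OB and 72.3 ± 83.4 in BS (SD, n = 3 each). It was higher in both on 3 AG reads, by a ratio of reads of 70.8 in OB (95% exact counting interval 23.9 to 346) and 82.3 in BS (27.8 to 402), and its log2 difference in BS was 4.59, or 3.67 without BS_287. Mical2, an actin oxidizing enzyme of the family that acts below plexins, averaged 50.4 ± 26.8 in OB and 212 ± 168 in BS, against 8680 ± 357 in AG, and was lower in both. Myo10, a motor that carries Dcc, was 8.45-fold lower in OB and 6.65-fold lower in BS, and Fes, a kinase that binds Plxna1, 9.25-fold lower in OB and 7.90-fold lower in BS. All of these genes were called with limma in both comparisons. Crmp1 and Dapk1 stayed under the filter value in every AG library and entered through tumour libraries. Fes stayed under it in every tumour library and entered through AG, so the counts of effectors are a description. Single libraries moved the log2 difference of Dpysl4 in OB to 7.03 (without OB_287) and 5.72 (without OB_295), against 6.37 with all libraries, and that of Rnd2 in OB to 4.69 (without OB_287), against 3.90. In BS, Mical2 was at -6.81 without BS_287, -4.81 without BS_295 and -6.82 without BS_296, against -6.15 with all libraries.

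Between the tumour groups, limma called 0 of the 29 guidance genes, where 0 of all genes tested (0%) were called. At an unadjusted p under 0.05 there were 5 guidance genes, against 9.64% of all genes. edgeR called 0 and DESeq2 called 2, Sema3d and Slit3, against 2.24% of all genes. By DESeq2 the log2 difference of Sema3d, OB over BS, was 3.47 (adjusted p = 0.00222) and that of Slit3 4.19 (adjusted p = 0.0199). By limma it was 2.60 ± 0.89 for Sema3d (SE, adjusted p = 0.438) and 3.30 ± 1.29 for Slit3 (0.483), and without OB_287 Sema3d was called at 3.70 (0.0434). The libraries of OB and BS did not overlap for Sema3d, which was higher in OB, and for Plxna3 and Unc50, which were lower in OB, where 9.99% of all genes did not overlap. Plxnb3 differed by 3.15 ± 1.38 (SE, limma adjusted p = 0.518) and Dcc by 0.95 ± 0.53 (0.594). A p above the threshold does not show that the groups are alike.

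Libraries of 1 tumour group differed widely for many guidance genes. The median SD on the log2 scale was 0.88 in OB, 0.94 in BS and 0.12 in AG for the guidance genes, against 0.48, 0.47 and 0.12 over all genes tested. The SD was above 1 for 13 of 29 guidance genes in OB, 13 in BS and 1 in AG, against 21.6%, 19.1% and 1.41% of all genes. This spread was not tested. Among others, OB_257 was the lowest OB library for Ntn1, Ntn4, Slit1, Sema3a, Sema5b and Plxna4 and the highest for Sema3d, Sema3e, Sema3g, Sema4g, Sema5a and Sema7a. Likewise, BS_287 was the highest BS library for, among others, Sema3c, Sema3g, Sema5a, Slit3 and Plxna4 and the lowest for Ntn1, Plxnb3, Plxnc1 and Sema3d. Without OB_257 and BS_287 together, 12 guidance genes were higher and 7 lower in OB against AG, and 9 higher and 5 lower in BS against AG. Calls over all genes were then 4781 in OB against AG and 4740 in BS against AG, where all libraries gave 3695 and 3712.

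**Figure D4:**
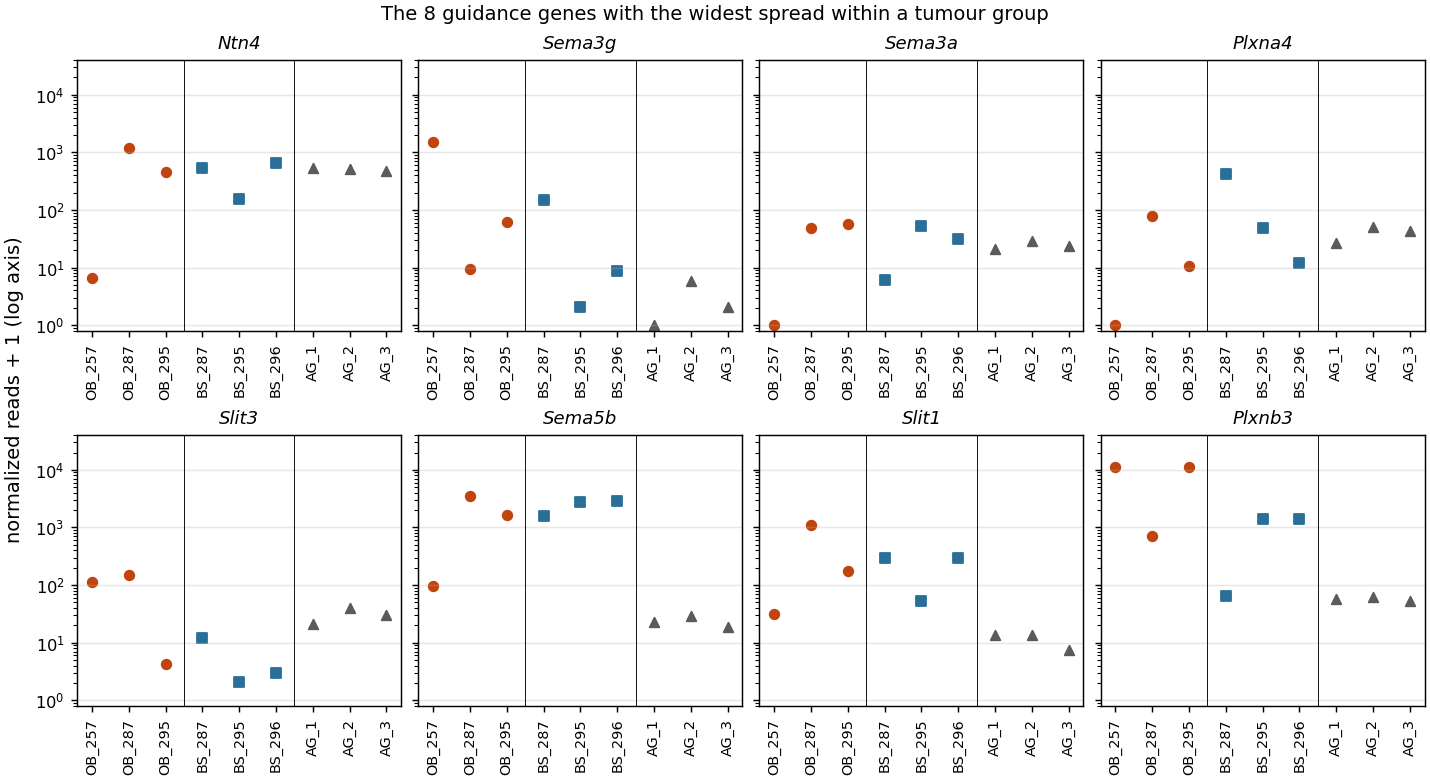
Normalized reads plus 1 (log axis) in each OB and BS library of the 8 tested guidance genes with the widest spread within a tumour group, beside AG. Ntn4 ran from 5.53 to 1213 in OB and Sema3g from 8.56 to 1541, while their AG libraries lay within 477 to 539 and 0 to 4.93.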

How the data were processed

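Per the labels' protocols, Sepazol-extracted RNA went into stranded TruSeq libraries that were run on a HiSeq3000. Tools named in the submitters' processing notes, with no role or order, are DESeq2 1.20.0, HISAT2 2.1.0, bcl2fastq 1.8.4 and featureCounts (Subread 1.6.2), with the build mm9. Which annotation and strand setting were used, and how shared reads were treated, is not given in the sources used here, so reads of overlapping antisense genes cannot be told apart. The signal values the authors deposited, for 16260 RefSeq transcripts, are reads divided by a size factor of each library; undoing it gave whole reads, within 0.05, for 100% of values.

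Transcripts were named from RefSeq (16202) or GENCODE (41); 17 unnamed ones (0.463% of normalized reads) were left out. Rows were summed per symbol, which gave 14771 genes. The median row mean was 258.6 for genes with 1 curated RefSeq transcript, 12.57 with 2 and 6.81 with 3 or more, so levels are not compared between genes, and low values of genes with several transcripts are not read as low expression. limma 3.58.1 (R 4.3.3) was run on log2(value + 1), with 3 group means in 1 fit of 9 libraries, a variance trend, two-sided tests and Benjamini-Hochberg adjustment over 10576 genes, those with 3 or more libraries at or above 10 normalized reads. Calls are at an adjusted p under 0.05. Alternatives were pseudocounts, filters, rescaling, 2-group fits, other variance models, edgeR 4.0.16 (quasi-likelihood) and DESeq2 1.42.0 on recovered reads (edgeR called 3724, 3679 and 0 genes in OB against AG, BS against AG and OB against BS), blocks and libraries left out. The method was tested on simulated data with the same dispersion for all genes and groups. That test did not cover the wider spread of the tumour libraries. A floor of 3 reads is 3.14 normalized reads in OB, 2.89 in BS and 2.91 in AG. Since the reads carry no molecular identifiers, floors and intervals cover only counting error.

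The members and the lists of partners, effectors, pairs, motifs and markers were chosen with earlier results of these data known. Genes called in at least 1 comparison are given by library, the rest by range, and of each list of further genes up to 4 called genes in each direction with the largest differences are named. Dpysl2 and Dpysl3 are named besides these, as relatives of Dpysl4. The build of the reference differs from that of the table, so only the promoter windows carry positions.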

Additional observations from a re-analysis of the deposited data

How the results depend on the processing

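Of the calls of guidance genes, 11 of 15 in OB against AG and 11 of 13 in BS against AG held in every alternative that was run. Sema3a in OB against AG, uncalled at -0.79, turned to 0.60 with edgeR, 0.57 with DESeq2, ran from -1.79 (without OB_295) to 1.12 (without OB_257) with 1 library left out, and was 1.12 without OB_257 and BS_287 together (adjusted p = 0.0369, chosen because both stand apart). The number of guidance genes called lower in OB against AG, 5, became 3 under upper quartile rescaling and 3 under quantile normalization, and ran from 3 to 6 with 1 library left out (3 without AG_1, AG_2, AG_3, OB_257 or OB_287). The number called higher in OB against BS, 0, became 2 with DESeq2 and ran from 0 to 1 with 1 library left out (1 without OB_287). Over all genes, BS against AG gave 3712 calls and 2427 to 4353 with 1 library left out (2427 to 2464 without an AG library). OB against BS gave 0 calls over all genes, 4 and 6 with pseudocounts of 0.5 and 5, 3 with quantile normalization, 2 without a variance trend, 237 with DESeq2, 69 without OB_257 and BS_287 together, and 0 to 96 with 1 library left out (96 without OB_287). The causes were not tested.

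Upper quartile rescaling moved the split over all genes to 2158 higher and 1675 lower in OB against AG (1687 and 2008 without it) and to 2135 and 1674 in BS against AG (1652 and 2060).

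A number recurs in the titles OB_287 and BS_287, and another in OB_295 and BS_295; no label explains them. Deviations from the group means correlated at 0.07 for OB_287 with BS_287 and 0.30 for OB_295 with BS_295 across genes, and from -0.41 to 0.29 for the other pairs of libraries. The pair OB_295 and BS_295 had the highest of these correlations, and whether the numbers mark shared animals or batches was not settled. With the number as a random replicate block, 10 guidance genes were higher and 5 lower in OB against AG, 8 higher and 5 lower in BS against AG, and 4 of all genes were called in OB against BS. With a fixed block 0 genes were called in OB against BS. AG shares no number with the tumour groups.

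Of the guidance genes with several RefSeq transcripts, 7 of 14 were under the filter, and their low values limit what can be said of them; the cause was not tested.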
